A study of Mus musculus with 6 samples.

Results

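The AP-1 transcription factor genes Fos, Fosb, Fosl1, Fosl2, Jun, Junb and Jund, together with Egr1, Ier3 and Myc, were followed in the corpus of the mouse stomach with and without claudin 18, a tight junction protein of the gastric epithelium. These 10 genes were picked by symbol, with earlier results of these data known, and each has 1 row among the 38720 rows of the deposited table. The study compared 3 libraries of wild-type mice (CLDN18+/+) with 3 of knockout mice (CLDN18-/-), all of strain B6:129S5 and with no other treatment named. From unfixed frozen sections, the neck part of the glands was taken by laser capture microdissection, a method that lifts chosen cells off a section under a microscope, and its total RNA was sequenced. The labels give the age as 7 weeks after birth, and the design text gives 7 days, so the age is not settled. Whether the libraries of 1 genotype stem from different animals is not in the labels. The p-values therefore cover no more than the spread among the 6 libraries, and that spread may be technical.

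AP-1 is a dimer of a FOS family and a JUN family protein, or of 2 JUN family proteins, joined through a leucine zipper, and it binds DNA at short palindromic sites. Many of its genes are immediate early genes: growth factors, wounding and stress switch them on within minutes through MAP kinases and ready-made transcription factors, without new protein, and most of their RNAs are short-lived. Egr1 encodes a zinc finger factor that answers to the same signals, Ier3 a small protein linked to cell survival, and Myc a factor that drives ribosome building and growth. The sources used here do not give the time from removal to freezing.

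The libraries held 37673283 to 52842813 reads on genes, of which 38.6% to 45.4% lay on the single row Gm26924. Mitochondrial reads were 3.28% to 4.28% in wild-type and 1.25% to 1.56% in the knockout. Reads on the targeted gene were fewer in the knockout but still present: Cldn18 stood at 30498, 21210 and 23241 normalized counts in wild-type libraries 1 to 3 and at 13035, 16798 and 15818 in knockout libraries 1 to 3 (log2 difference -0.71 ± 0.20 SE, limma adjusted p = 0.0134). This call was lost without knockout library 1 (-0.60, adjusted p = 0.0896). Which exons were deleted is unknown here, so this checks only the direction of the labels. The captured tissue held neck cell RNA, with Muc6 at 27172 to 33951 in wild-type and 6917 to 13050 in the knockout. It also held RNA of parietal and chief cells, whose 8 and 6 tested markers were all lower in the knockout. The summed level of the parietal markers was 410339 to 533968 in wild-type and 3191 to 9868 in the knockout. That of the 7 listed chief cell markers was 1815250 to 3011630 in wild-type and 39930 to 74340 in the knockout. Slc26a7, a parietal marker, reached 10 normalized counts in 3 libraries only through wild-type, so it could only come out lower. Without it 7 of 7 parietal markers were lower. Of 7 neck cell markers 3 were higher and 3 lower. Their summed level was 1478390 to 2341010 in wild-type and 139535 to 223001 in the knockout. Most of it was Pgc, itself a chief cell marker, so this sum does not stand for neck cells alone. Of 6 surface and pit cell markers 1 was higher and 3 were lower, and of 8 squamous markers 0 and 4. Over all genes 23.3% were higher and 21.5% lower. Krt6a, a squamous marker, also passed only through wild-type, and without it 3 of 7 were lower. The Gkn2 call was lost without wild-type library 1 or 3 or any 1 knockout library (limma adjusted p from 0.0553 to 0.227). That of Gkn1 was lost without knockout library 1 or 2, and that of Krt6a without wild-type library 3 (adjusted p from 0.0556 to 0.0949). Wild-type libraries 2 and 3 stood apart from library 1: the summed level of 11 stratified squamous markers was 687, 8348 and 3025 in wild-type libraries 1, 2 and 3 and 305 to 450 in the knockout, and the reads on processed pseudogenes were 0.144%, 1.07% and 0.530% of all in these libraries, against 0.104% to 0.118% in the knockout. Of all genes tested, 8.19% exceeded their value in wild-type library 1 by 3 times or more in library 2 and by 1.5 times or more in library 3. Of the 10 genes Fosb and Egr1 had this pattern, and values without library 2, or without both, are given where they bear on a result. The fit without both leaves 1 wild-type library, so its p-values rest on the spread of the knockout libraries.

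Of the 10 genes, 6 rose in the knockout (Fos, Fosl1, Fosl2, Junb, Egr1 and Ier3), 1 fell (Fosb), and 3 did not pass the test (Jun, Jund and Myc). Fosl1 had the largest difference, about 13.2-fold in mean normalized count, and the other increases were between 1.42-fold and 2.66-fold. A gene was called at a limma adjusted p under 0.05 over 17432 genes, all 10 among them. The background is high: 44.7% of all genes tested were called, 23.3% higher and 21.5% lower. Because the 10 genes were chosen with earlier results known, the shares beside them describe and do not test them as a set. Without wild-type library 2, 7 of the 10 were called higher and none lower, against 23.0% and 19.4% of all genes. The median log2 difference was 0.98 for the 10 genes and -0.02 for all genes tested. Knockout values lay wholly above wild-type values for 7 of the 10, against 28.1% of all genes, and wholly below for none, against 27.1% (55.2% in either direction). In this bulk tissue a changed share of cells of a type and a changed amount of RNA per cell cannot be told apart, for rises as for falls.

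**Figure D1:**
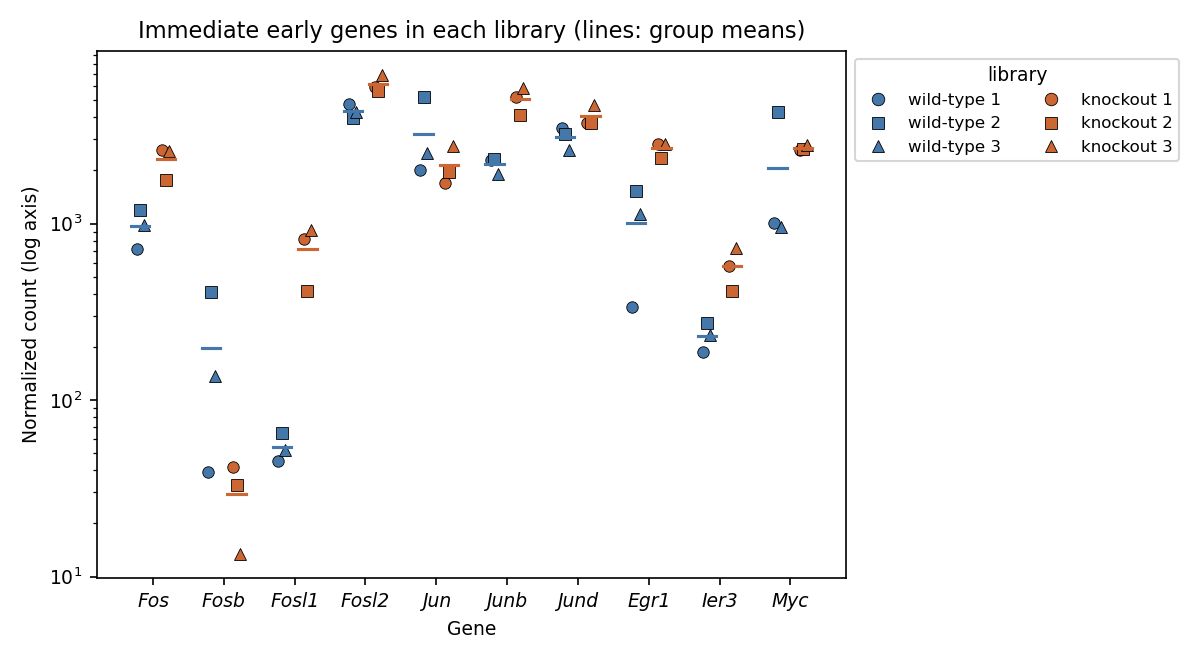
Normalized count (log axis) of the 10 genes in each of the 6 libraries; the marker shape gives the library number, blue is wild-type, orange is knockout, and short lines are group means. The 3 knockout points of Fosl1 sit between 415 and 921, above wild-type points of 45.3 to 65.4, while wild-type library 2 stands high for Fosb, Jun and Myc.

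The promoters of 3 FOS family genes are printed to show the sequence next to their start. Windows of 250 bases before the start were taken from RefSeq (build GRCm38.p6), which listed 7 of the 10 genes; Fosl1, Egr1 and Myc had no entry. They are written 5′ to 3′ on the strand of the gene, from chr12:85473640-85473889 (Fos, plus strand), chr5:32136222-32136471 (Fosl2, plus strand) and chr7:19310046-19310295 (Fosb, minus strand), and capitals mark the motifs found. The RefSeq start of Fosl2 lies 671 bases downstream of the GENCODE start that its coordinates below use, so its window is inside that gene model; for Fosb the gap is 6 bases and for Fos 0.
Fos: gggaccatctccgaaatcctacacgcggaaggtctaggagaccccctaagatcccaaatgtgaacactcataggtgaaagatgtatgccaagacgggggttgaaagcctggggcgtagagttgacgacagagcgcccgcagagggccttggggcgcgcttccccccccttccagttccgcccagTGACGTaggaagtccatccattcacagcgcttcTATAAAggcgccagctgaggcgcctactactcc
Fosl2: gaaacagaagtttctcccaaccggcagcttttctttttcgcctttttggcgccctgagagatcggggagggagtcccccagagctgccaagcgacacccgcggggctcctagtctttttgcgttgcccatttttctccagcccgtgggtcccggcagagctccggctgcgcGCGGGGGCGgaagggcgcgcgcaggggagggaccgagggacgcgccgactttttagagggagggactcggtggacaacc
Fosb: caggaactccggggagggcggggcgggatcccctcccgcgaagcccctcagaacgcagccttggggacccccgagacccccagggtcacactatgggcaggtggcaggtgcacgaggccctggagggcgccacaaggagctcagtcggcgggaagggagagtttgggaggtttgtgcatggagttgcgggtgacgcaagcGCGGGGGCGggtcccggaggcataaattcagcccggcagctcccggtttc
On both strands the windows were searched for the CArG box (bound by serum response factor), TGACGT (the core of the cAMP response element), TGANTCA (the AP-1 site), CACGTG (bound by MYC), GCGNGGGCG (the EGR site) and TATAAA. Fos held TGACGT, 66 to 61 bases before the start, and TATAAA, 33 to 28 bases before it. Fosl2 held GCGNGGGCG 79 to 71 bases before its start and Fosb 50 to 42 bases before its own. The windows of Jun, Junb, Jund and Ier3 held none of the 6. Over 32851 windows of this length, 6.47% held TGACGT, 12.4% TATAAA, 4.70% GCGNGGGCG, 1.47% a CArG box, 6.75% TGANTCA and 6.02% CACGTG. These matches describe letters and are not shown to be bound. Bases further than 250 before the start were not searched, so a missing match says nothing about sites there. Whether any match bears on the direction of change of its gene was not tested.

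The inducible FOS gene Fos (ENSMUSG00000021250.13, chromosome 12, 85473890 to 85477273, plus strand, mm10) encodes the partner that, with JUN, forms the classical AP-1 dimer. It stood at 722, 1194 and 981 normalized counts in wild-type libraries 1, 2 and 3, and the knockout libraries, in the same order used below, had 2627, 1758 and 2567. The groups did not overlap, and knockout library 2 was the lowest of its group. Fos rose by 1.27 ± 0.21 on the log2 scale (SE; limma adjusted p = 0.000841), or 2.40-fold in the mean. The difference was as large without wild-type library 2 (1.44) and without libraries 2 and 3 (1.66).

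Fosl1 (ENSMUSG00000024912.6, chromosome 19, 5447547 to 5455946, plus strand) encodes FRA1, which lacks the transactivation domain of FOS and accumulates in wounded and invading epithelia. Wild-type libraries held 45.3, 65.4 and 52.4 normalized counts and knockout libraries 822, 415 and 921. The lowest knockout library was thus several times above the highest wild-type library. Fosl1 rose by 3.64 ± 0.31 on the log2 scale (SE; limma adjusted p = 1.17e-05), and leaving out any 1 library gave 3.42 to 3.99. Of the 2033 exon bases of Fosl1, 57.2% are shared with Ccdc85b on the opposite strand, and the sources used here do not say whether counting used strand. Ccdc85b itself lay at 257 to 369 in wild-type and 278 to 302 in the knockout, with a log2 difference of -0.07.

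Fosl2 (ENSMUSG00000029135.10, chromosome 5, 32135801 to 32157842, plus strand) encodes FRA2, a more constantly expressed FOS family member. Its normalized counts were 4789, 3952 and 4316 in the wild-type libraries, with 5920, 5648 and 6977 for the knockout. The groups were close without overlapping, and Fosl2 rose by 0.50 ± 0.14 on the log2 scale (SE; limma adjusted p = 0.0157). That call was lost without knockout library 1 (adjusted p = 0.0506), without knockout library 3 (adjusted p = 0.0797) and without wild-type libraries 2 and 3 (adjusted p = 0.142).

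Fosb (ENSMUSG00000003545.3, chromosome 7, 19302696 to 19310051, minus strand), a FOS paralogue known for its strong induction by stimulation, was the only one of the 10 that was called lower. Wild-type libraries had 39.2, 412 and 137 normalized counts, and knockout libraries had 41.6, 33.2 and 13.5. Wild-type library 1 lay inside the knockout range, so the groups overlapped, and library 2 stood 10.5 times and library 3 3.50 times above library 1. The log2 difference was -2.25 ± 0.74 (SE; limma adjusted p = 0.0291). It was no longer called without wild-type library 2 (-1.43, adjusted p = 0.0829), without wild-type library 3 (-2.22, adjusted p = 0.0936), or without knockout library 2 (-2.41, adjusted p = 0.0563) or 3 (-1.79, adjusted p = 0.109). Without wild-type libraries 2 and 3 together it was -0.54 (adjusted p = 0.597).

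Among the JUN genes, Junb rose and Jun did not. Junb (ENSMUSG00000052837.6, chromosome 8, 84974484 to 84978718, minus strand) encodes a JUN family member that activates less strongly than JUN and can restrain it. The wild-type libraries gave 2301, 2329 and 1912 normalized counts and the knockout libraries 5250, 4124 and 5863. No knockout library reached down to the wild-type range, and Junb rose by 1.21 ± 0.16 (log2, SE; limma adjusted p = 0.0002). Of its exon bases 7.52% are shared with Prdx2 on the opposite strand, which fell by 0.73 on the log2 scale.

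Jun (ENSMUSG00000052684.4, chromosome 4, 95049034 to 95052222, minus strand), which encodes the main activating partner of FOS, had 2016, 5188 and 2509 normalized counts in the wild-type libraries, against knockout values of 1709, 1967 and 2744. The groups overlapped, and wild-type library 2 held about 2.57 times the value of library 1. Its log2 difference of -0.50 was not called (limma adjusted p = 0.213), with a 95% interval from -1.18 to 0.18. Without wild-type library 2 the difference was -0.10 (adjusted p = 0.717), without libraries 2 and 3 it was 0.06 (adjusted p = 0.882), and without wild-type library 1 it was -0.78 and called lower (adjusted p = 0.0429).

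Jund (ENSMUSG00000071076.6, chromosome 8, 70698949 to 70700616, plus strand), the JUN gene that is expressed most steadily in resting cells, had 3473, 3219 and 2602 normalized counts in the wild-type libraries, and the knockout gave 3717, 3732 and 4689. Each knockout value lay above each wild-type value, by a small margin. The log2 difference of 0.39 ± 0.16 (SE) missed the threshold (limma adjusted p = 0.07), with a 95% interval from 0.04 to 0.74 before adjustment. It was called without wild-type library 1 (0.47, adjusted p = 0.0315), and edgeR on the recovered reads called it as well (adjusted p = 0.0285). In GENCODE 52.6% of its exon bases are shared with Gm11175 on the opposite strand, which is listed at 0 in all 6 libraries.

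**Figure D2:**
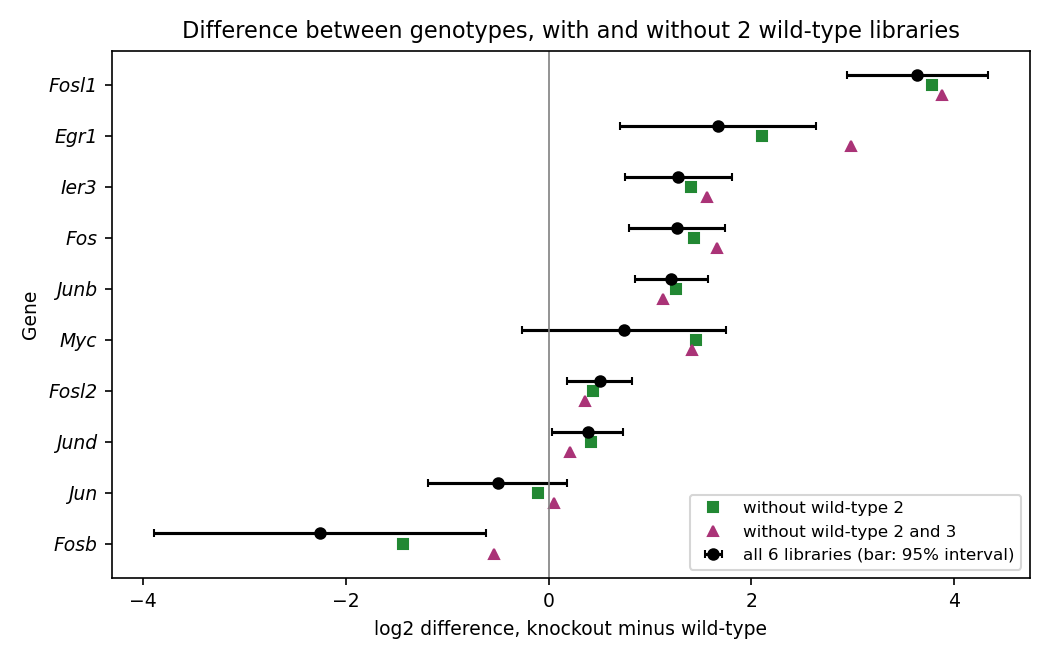
The log2 difference (knockout minus wild-type) of each gene, with all 6 libraries and its 95% interval (black), without wild-type library 2 (green) and without wild-type libraries 2 and 3 (purple). Fosl1 keeps a difference of 3.64 to 3.88, whereas Fosb moves from -2.25 to -0.54 and Myc from 0.75 to 1.45 without library 2.

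Per kb of merged exon, a scale on which genes can be compared, Jund led the FOS and JUN genes in both genotypes. Of the exon bases of Fosl1 57.2%, and of Jund 52.6%, are shared with a gene on the opposite strand. Whether counting used strand is not stated, so the levels and shares of these genes are less certain. In wild-type Jund was highest (1857 ± 268 per kb, SD, n = 3), followed by Jun (1015 ± 535) and Junb (948 ± 101), and Fosl1 was the lowest (26.8 ± 5.0), just under Fosb (31.4 ± 31.0). The places of Jun and Fosb rested on wild-type library 2: without it Junb (mean 916 per kb) lay above Jun (709) and Fosl1 (24.0) above Fosb (14.1), so that the first, second and lowest genes were those of the knockout. In the knockout Jund (2426 ± 334) and Junb (2207 ± 383) led, Fos (985 ± 206) lay above Jun (671 ± 169), and Fosb was the lowest (4.71 ± 2.31). Most neighbours in these orders overlapped over their 3 libraries. Among all 10 genes ordered by mean, the neighbours that stood apart were Ier3 above Fosb in wild-type, and in the knockout Junb above Myc and Fosl1 above Fosb.

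The make-up of the family RNA differed as well. The share of Junb went from 20.2% ± 1.9 to 30.2% ± 1.4, that of Fos from 8.68% ± 1.76 to 13.5% ± 1.8 and that of Fosl1 from 0.566% ± 0.071 to 4.75% ± 1.27 (SD, n = 3; no overlap between groups). That of Jun went from 20.8% ± 7.7 to 9.19% ± 1.5, also without overlap, and it was 29.1% in wild-type library 2. Without that library the difference in share was -7.39 points for Jun, in place of -11.6, and 9.08 for Junb, 5.02 for Fos and 4.19 for Fosl1. Each of these shares gave an exact two-sided permutation p of 0.1, the smallest that 3 against 3 libraries allow, or 0.14 adjusted over the 7 shares. Junb stood at 1.58, 0.622 and 1.06 times Jun per kb in wild-type libraries 1, 2 and 3 and at 4.26, 2.91 and 2.96 times Jun in the knockout. Summed over the 7 genes, wild-type libraries had 4739 ± 766 per kb and knockout libraries 7287 ± 1153 (SD, n = 3), and the FOS genes made up 19.6% ± 2.3 and 27.1% ± 2.5 of it.

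**Figure D3:**
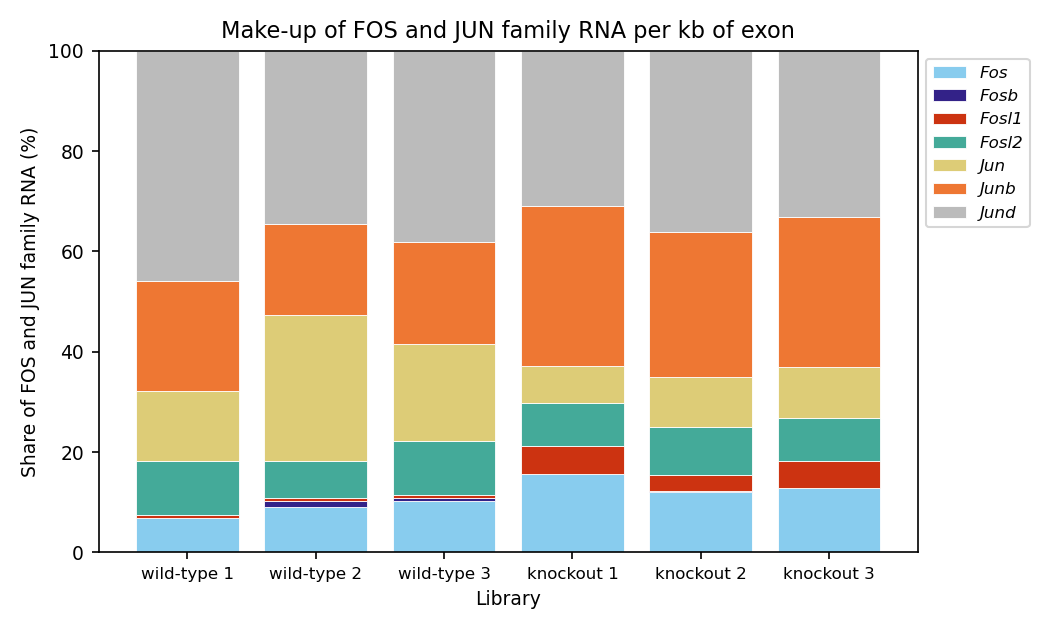
Share (%) of each of the 7 FOS and JUN family genes in their summed normalized count per kb of exon, in each of the 6 libraries. Orange (Junb, 30.2% on average in the knockout) and red (Fosl1, 4.75%) widen in the knockout bars, and yellow (Jun) narrows from 20.8% to 9.19%.

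Egr1 (ENSMUSG00000038418.7, chromosome 18, 34859823 to 34864984, plus strand) stood at 335, 1540 and 1135 normalized counts in the wild-type libraries, and knockout values were 2838, 2340 and 2833. All knockout libraries were above all wild-type libraries, although wild-type libraries 2 and 3 were 4.59 and 3.38 times as high as library 1. Egr1 rose by 1.67 ± 0.44 (log2, SE; limma adjusted p = 0.00998). The difference was larger without wild-type library 2 (2.11, limma adjusted p = 0.000565), and 1.01 without library 1 (adjusted p = 0.000669). Without libraries 2 and 3 it was 2.98, measured against library 1 alone, the lowest wild-type library for Egr1. The call was lost with DESeq2 on the recovered reads (1.38, adjusted p = 0.0503) and in limma without a variance trend (adjusted p = 0.0619).

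Ier3 (ENSMUSG00000003541.6, chromosome 17, 35821684 to 35822923, plus strand), which is induced by growth factors and by NF-kB, had wild-type values of 189, 274 and 234 normalized counts and knockout values of 578, 414 and 730. The groups did not overlap, with knockout library 2 again the lowest of its group. Ier3 rose by 1.28 ± 0.24 on the log2 scale (SE; limma adjusted p = 0.00158), or 2.47-fold in the mean.

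Myc (ENSMUSG00000022346.15, chromosome 15, 61985391 to 61990374, plus strand) was even across the knockout libraries and uneven across the wild-type libraries. Its wild-type values were 1004, 4262 and 957 normalized counts, and its knockout values 2626, 2635 and 2793. Wild-type library 2 was above all knockout libraries, and the other 2 wild-type libraries were below all of them. With all 6 libraries Myc was not called (log2 difference 0.75 ± 0.45 SE, limma adjusted p = 0.21), with a 95% interval from -0.26 to 1.75. Without wild-type library 2 it was called higher (1.45, adjusted p = 8.61e-06), and without libraries 2 and 3 as well (1.42, adjusted p = 0.000461), a fit in which the lone wild-type library left is taken to vary like the knockout libraries.

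Values that moved with these genes within a group are given here, and their part in the results was not tested. Knockout library 2 was the lowest of the 3 knockout libraries for 6 of the 10 genes (Fos, Fosl1, Fosl2, Junb, Egr1 and Ier3), against 38.1% of all genes tested. It was also the lowest for 14 of 15 heat shock genes and for 6 of 6 surface and pit cell markers. So it was for 18 of 22 zipper partners of FOS and JUN, 27 of 36 MYC targets and 25 of 33 AP-1 targets. Of the other immediate early genes 21 of 34 were lowest there, as were 7 of 10 myeloid and 3 of 3 lymphocyte markers. The count was 0 of 8 for parietal, 1 of 6 for chief cell, 2 of 7 for neck cell and 3 of 10 for endothelial markers. It was 2 of 8 for fibroblast, 2 of 8 for smooth muscle and 3 of 8 for squamous markers. The summed level of the surface and pit cell markers was 582633, 336863 and 583200 in knockout libraries 1, 2 and 3. Wild-type library 2 was the highest wild-type library for 8 of the 10 genes, against 34.0% of all genes. Wild-type library 1, the lowest for 6 of the 10 (28.2% of all genes), held the highest summed level of surface and pit cell markers, 1496350 against 882458 and 996224. Without knockout library 2 the 6 genes that rose kept their calls, with log2 differences of 0.57 for Fosl2 to 3.99 for Fosl1.

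Heat shock genes, which encode chaperones that answer to protein damage, were called higher in 8 of 15 cases. Of the others 1 was lower and 6 were not called, against 23.3% higher and 21.5% lower over all genes, with a median log2 difference of 0.79. Hspa1a, an inducible HSP70 gene, went from 24.5, 23.5 and 11.7 normalized counts to 1127, 146 and 1165. Hsph1, which encodes an HSP70 partner, went from 1400 ± 189 to 8502 ± 2625 (SD, n = 3). Cryab, a small heat shock gene, fell from 311, 1176 and 539 to 60.4, 58.4 and 75.0.

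The other immediate early genes split into both directions. Of 34 tested, 11 were higher, 8 lower and 15 not called (median log2 difference -0.02), near the background of 23.3% and 21.5% per direction. Socs3, a feedback inhibitor of cytokine receptors, rose by 2.66 ± 0.28, Trib1, which encodes a scaffold for protein degradation, by 2.09 ± 0.16, and Arc by 1.86 ± 0.23 (log2, SE). Sgk1, a kinase gene under steroid and serum control, fell by 2.26 on the log2 scale, from 4871 ± 950 to 1009 ± 80 normalized counts (SD, n = 3).

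A few more genes of that list, chosen after their values were seen, show the split. Ier2, a close companion of Fos and Junb in the serum response, went from 1089, 1030 and 864 to 2616, 2253 and 2662 normalized counts (log2 difference 1.34 ± 0.15 SE). Nr4a2, an orphan nuclear receptor gene, went the other way, from 1377, 2089 and 1371 to 707, 471 and 482 (-1.54 ± 0.22 SE). Sik1, a cAMP-induced kinase gene, went from 2715, 1829 and 1886 to 809, 757 and 728 (-1.46 ± 0.17 SE). Egr4, an EGR1 paralogue gene that passed the filter only through wild-type, had wild-type values of 12.2, 116 and 77.7 and knockout values of 3.78 to 7.69, a lower call that was lost without wild-type libraries 2 and 3 (limma adjusted p = 0.393) and without library 3 alone (adjusted p = 0.0601). Of the 34 genes, 9 had the excess in wild-type libraries 2 and 3 over library 1 that Fosb and Egr1 had. Without wild-type library 2 the count was 14 higher and 8 lower, and without libraries 2 and 3 it was 14 higher and 5 lower.

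Of 25 genes listed for zipper proteins that pair or compete with FOS and JUN, 22 passed the filter on values. Of these 9 were higher, 3 lower and 10 not called, against 23.3% and 21.5% of all genes (11 and 2 without wild-type library 2), with a median log2 difference of 0.33. Batf2, a gene for a short AP-1 partner known from interferon responses, rose by 3.60 ± 0.33 (log2, SE), from 26.9 ± 7.8 to 335 ± 82 normalized counts (SD, n = 3). Maff, a small MAF gene that is itself an immediate early gene, went from 109, 538 and 263 to 790, 677 and 1092 (log2 difference 1.74 ± 0.46 SE). Batf, a gene for another short AP-1 partner, rose by 1.66 ± 0.42 (log2, SE). The Batf call was lost without knockout library 1 (limma adjusted p = 0.0517). Batf is also expressed by immune cells. Of 10 macrophage and myeloid markers tested, 5 were higher and 1 lower, and their summed level was 2180 to 2878 in wild-type and 4063 to 7111 in the knockout. Neutrophil markers summed to 54.3 to 79.6 in wild-type and 49.98 to 69.9 in the knockout, and Ly6g was at 0 in all libraries. The 1 neutrophil marker that passed the filter, Csf3r, was called higher (log2 difference 1.53, limma adjusted p = 0.0421), a call lost without wild-type library 1 or any 1 of the knockout libraries (adjusted p from 0.0646 to 0.186). None of 3 lymphocyte markers tested was called (summed level at most 123 and 196 in the groups). Of 8 fibroblast markers 4 were higher, and of 8 smooth muscle markers 3 were lower. The Myh11 call was lost without wild-type library 1 or any 1 knockout library (limma adjusted p from 0.0936 to 0.123). That of Acta2 was lost without knockout library 1 (adjusted p = 0.0784). Endothelial markers, 8 of 10 of them lower, summed to 8347 to 13471 in wild-type and 3588 to 4888 in the knockout. Their part in the changes was not tested.

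The list of AP-1 targets, like those of EGR1 and MYC targets below, was chosen with earlier results of these data known. Its counts are thus no independent check. Of 35 genes known as AP-1 targets, 33 passed the filter, 4 of them (Mmp3, Mmp9, Mmp10 and Ivl) only through the knockout libraries, so that they could only come out higher. Without these 4, 20 of 29 were higher, 5 lower and 4 not called, against 23.3% and 21.5% of all genes, with a median log2 difference of 1.89; with them it was 24 of 33 and 2.38. Among those 4, Mmp10, which encodes the protease stromelysin 2, went from 4.90, 0 and 4.86 normalized counts to 654, 411 and 1939. Il1rn, which encodes the interleukin 1 receptor antagonist, went from 13.5, 7.41 and 10.7 to 733, 462 and 1322, and Sprr1a, a cornified envelope gene, from 113, 98.8 and 124 to 6295, 4204 and 13806. In each of these 3 genes knockout library 2 was the lowest of its group, as it was for Fosl1, and knockout library 3 the highest. Knockout library 2 was the lowest for 25 of the 33 AP-1 targets and 27 of 36 MYC targets, against 38.1% of all genes. The 5 lower genes were Vim, Vegfa, Ets1, Mt1 and Mt2. Vim, the vimentin gene, had wild-type values of 1608, 8895 and 3487, and its difference of -1.46 was -0.27 without wild-type libraries 2 and 3 (limma adjusted p = 0.45). Its call was also lost without wild-type library 3 or knockout library 1 or 2 (adjusted p from 0.0772 to 0.0942).

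Of 15 EGR1 targets and co-repressors tested, 8 were higher, 2 lower and 5 not called, against 23.3% and 21.5% of all genes (median log2 difference 0.99). Gdf15 passed the filter only through the knockout libraries, and without it 7 of 14 were higher, with a median of 0.77. Without wild-type libraries 2 and 3 the counts of the 15 were 8 higher and 0 lower. Nab1, which encodes a co-repressor that binds EGR1, rose by 1.63 ± 0.14, and F3, which encodes tissue factor and is also counted among the AP-1 targets, by 2.40 ± 0.27 (log2, SE). Trp53, the p53 gene, went from 761 ± 138 to 2009 ± 19 normalized counts (SD, n = 3). Thbs1, the thrombospondin 1 gene, fell, with 1617, 14697 and 5636 in wild-type against 644, 1410 and 1443, and was no longer called without wild-type libraries 2 and 3 (limma adjusted p = 0.34), without wild-type library 3 (adjusted p = 0.064) or without knockout library 1 (adjusted p = 0.0639).

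Genes known as MYC targets, among them nucleolar and ribosome assembly genes, were higher almost throughout. Of 36 tested, 34 were higher, none lower and 2 (Tert and Tfrc) not called, against 23.3% higher and 21.5% lower over all genes. Their median log2 difference was 1.30. This list was also chosen with earlier results known, so its counts are no independent check on MYC. Without wild-type library 2, where Myc itself was at its highest, the count was 34 as well. Ccnd2, a G1 cyclin gene, rose from 4900, 3744 and 2687 to 18237, 19429 and 21390 normalized counts (log2 difference 2.42 ± 0.21 SE). Slc19a1, the reduced folate carrier gene, rose by 2.28 ± 0.18, Grwd1, a histone-binding and ribosome assembly gene, by 2.19 ± 0.22, and Mybbp1a, a nucleolar gene, by 1.97 ± 0.17 (log2, SE).

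In the network that pairs with or opposes MYC, 3 of 13 genes tested were higher (Mycl, Mxd1 and Mlx), 2 lower (Mxd4 and Mxi1) and 8 not called, near the shares over all genes (23.3% and 21.5%). Mxd1, which encodes a MAX partner that represses MYC targets and is known from differentiating cells, went from 1153, 1014 and 1305 normalized counts to 6691, 3919 and 7838 (log2 difference 2.36 ± 0.23 SE). Mxd4, of the same repressor family, went from 4840, 3740 and 3432 to 1374, 1656 and 1668. Max, the shared partner, was not called (0.34, limma adjusted p = 0.181), and without wild-type library 2 it was called higher (adjusted p = 0.00785). Mycl was no longer called without wild-type libraries 2 and 3 (adjusted p = 0.107), without wild-type library 3 (adjusted p = 0.0503) or without knockout library 2 (adjusted p = 0.0707). The Mxi1 call (-0.44) was lost without wild-type library 1 or 2 and without knockout library 1 or 2 (adjusted p from 0.0577 to 0.139).

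**Figure D4:**
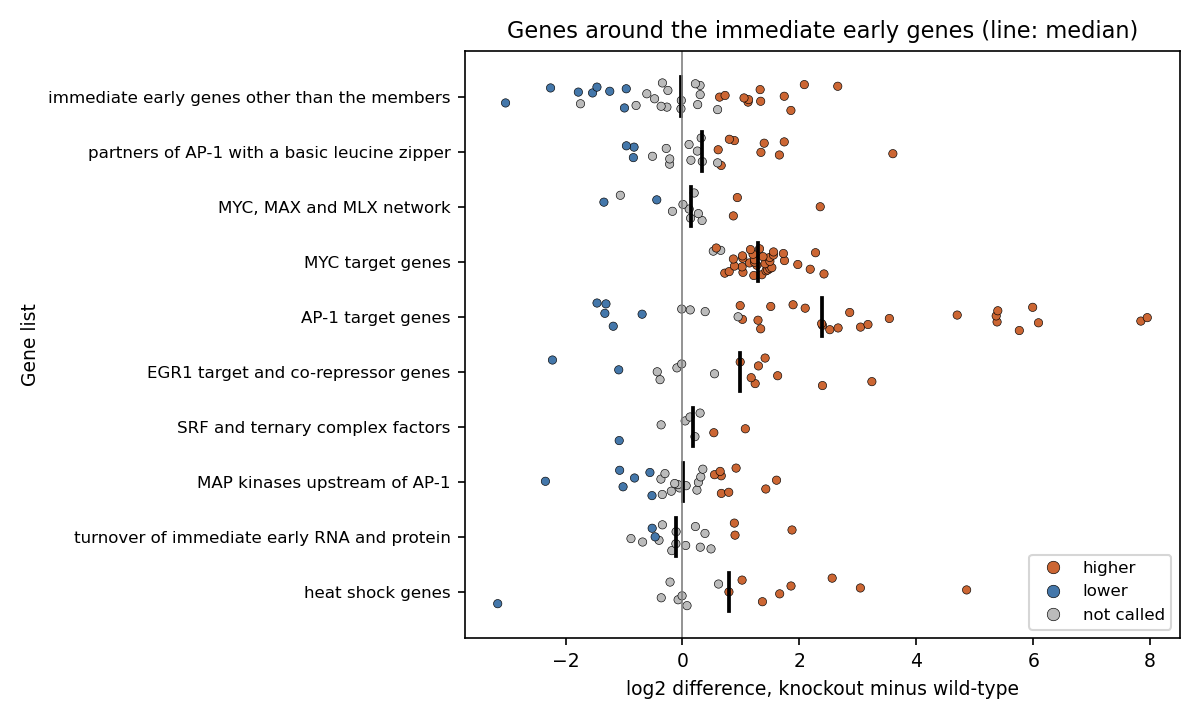
The log2 difference (knockout minus wild-type) of each tested gene in 10 gene lists; each point is a gene, orange is called higher, blue lower and grey not called, and the black line is the list's median. The medians are 2.38 for AP-1 targets (1.89 without the 4 genes that passed the filter only through the knockout) and 1.30 for MYC targets, and -0.02 for the other immediate early genes, which spread to both sides.

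For 4 of the genes the 3 genes of most similar profile were found among 11774 genes with a mean of at least 100 normalized counts, by the root mean square difference of centred log2 values over the 6 libraries. The closest to Fos were Piga (0.0554), Ampd2 (0.0655) and Slc5a3 (0.13). For Fosl1 they were S100a14 (0.23), Mall (0.236) and Gch1 (0.24), none of them as close as those of Fos. Sh3kbp1 (0.211), Hebp2 (0.223) and Maff (0.238) were closest to Egr1. Around Myc the closest were Inf2 (0.266), Chpf (0.316) and Rbm38 (0.332). Like Myc, each was highest in wild-type library 2, which follows from choosing genes by their profile.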

How the data were processed

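RNA of 3 wild-type and 3 Cldn18 knockout libraries was analysed, grouped by the sample labels. The tools named are STAR, featureCounts and DESeq, with build mm10, per the submitters' processing notes; their roles and versions are not stated there. The authors deposited normalized counts, a signal of whole reads divided by 1 number per library: 100% of values came out whole within 0.05 reads. The authors' deposited comparison (fold as a ratio, p-value and adjusted p) served as an alternative.

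limma 3.58.1 (R 4.3.3; mean trend, two-sided, Benjamini-Hochberg) was run on log2(normalized count + 1) for the 17432 genes that reached 10 normalized counts in 3 or more libraries. This scale understates changes of low genes. Alternatives changed pseudocount, filter, scaling, variance model, libraries and test (edgeR 4.0.16 and DESeq2 1.42.0 on recovered reads). The procedure was run on simulated data with far fewer changed genes than were called here and with no outlying library. That run does not cover these conditions. Lengths, coordinates and overlaps come from GENCODE vM21 (mm10), with 92.0% of rows matched. Permutation tests used SciPy 1.17.1.

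The 10 genes and 21 lists were chosen with earlier results of these data known. All 10 genes are named. Each pathway list gave up to 4 called genes by size of difference, where the genotypes were apart and the higher one averaged 100 or more; some were left out for length or are not reported here. Genes named to account for a small count were chosen after their values were seen. List counts without genes that pass the filter through 1 genotype, and per-kb levels without wild-type library 2, were added after seeing the data. Heat shock and cell type lists name called genes or the most abundant. Same-numbered libraries were not treated as pairs.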

Additional observations from a re-analysis of the deposited data

How the results depend on the processing

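Under 19 alternatives Fos, Fosl1, Junb and Ier3 kept direction and call, with log2 differences of 1.07 to 1.66, 3.42 to 3.99, 1.06 to 1.35 and 1.09 to 1.56. Egr1 lost its call with DESeq2 (adjusted p = 0.0503) and without a variance trend (adjusted p = 0.0619), and Fosl2 in 5 and Fosb in 8 of theirs. The higher genes among the 10 numbered 4 to 8 over all alternatives. The lower ones numbered 0, in place of 1, with a filter of 50 (Fosb is not tested there), with quantile normalization, without a variance trend, without wild-type replicates 2 and 3 and in the authors' deposited table. With 1 library left out they were 0 to 2, and the higher ones 5 to 7. Array weights called Myc (adjusted p = 0.0366) and Jund (adjusted p = 0.0227) higher. The sign of Jun turned without wild-type replicates 2 and 3 (0.0572). Over all genes the lower calls were 2488 there and 2025 in the authors' table, against 3743; the cause was not tested. With 1 library left out, higher calls were 3138 to 4379 and lower calls 2969 to 3899.

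Quantile normalization put the all-gene median at 0.10 and upper quartile scaling at -0.15. Relative to these the 10 genes kept their signs. The knockout minus wild-type share of Fosb was -1.15 points without length correction, against -0.55. With 1 library left out, differences in share were 3.79 to 5.57 points for Fos, -0.79 to -0.27 for Fosb, 3.75 to 4.91 for Fosl1, -2.08 to -0.29 for Fosl2, -15.0 to -7.39 for Jun, 9.08 to 11.02 for Junb and -8.55 to -2.93 for Jund.

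Deviations of libraries with the same number correlated at -0.00366, 0.0214 and -0.173, none of them the best match of its library, so no pairing was assumed. The replicate block gave 3726 higher and 3626 lower calls over all genes and 6 and 1 among the 10. Low counts limit the precision of Fosb (13.5 to 412 normalized counts) and of Fosl1 in wild-type (45.3 to 65.4).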

Other observations

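Of 26 genes tested in the MAP kinase pathway upstream of the immediate early genes, 8 were higher, 6 lower and 12 not called, near the shares over all genes (23.3% and 21.5%), with a median log2 difference of 0.01. Map2k3, which encodes an activator of p38 kinases, rose by 1.43 ± 0.20, and Mapk11, which encodes a p38 kinase, by 1.61 ± 0.37 (log2, SE). Map2k6 fell by 1.02, a call lost without wild-type libraries 2 and 3 (limma adjusted p = 0.0898) and without knockout library 1 (adjusted p = 0.0727).

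Of 8 genes for serum response factor and its partners 2 were higher, 1 lower and 5 not called. The shares over all genes were 23.3% higher and 21.5% lower. Fhl2, which encodes a co-factor of serum response factor, rose from 938 ± 40 to 1999 ± 369 normalized counts (SD, n = 3). Elk1, a ternary complex factor gene, went from 388, 993 and 482 to 271, 260 and 276, and its lower call was lost without wild-type libraries 2 and 3 (limma adjusted p = 0.103). Elk4 (0.54) lost its higher call there too (adjusted p = 0.26), and without wild-type library 3 (adjusted p = 0.0611) or knockout library 3 (adjusted p = 0.0761). Srf itself was not called (0.30, limma adjusted p = 0.345), with 2874 in wild-type library 2 against 1318 and 1775 in the other two.

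Of 17 genes that act on the turnover of these RNAs and proteins 3 were higher, 2 lower and 12 not called. Over all genes 23.3% were higher and 21.5% lower. Skp2, which encodes a ubiquitin ligase subunit, went from 169, 130 and 179 to 640, 535 and 571 normalized counts. Khsrp and Zfp36l2, which encode proteins that promote decay of AU-rich RNA, rose by 0.90 ± 0.14 and 0.89 ± 0.15 (log2, SE). Usp28 and Itch were lower, with log2 differences of -0.52 and -0.47. Both lower calls were lost without wild-type library 2 and without any 1 of the knockout libraries, and that of Usp28 also without wild-type library 3 (limma adjusted p from 0.056 to 0.142 for these fits).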
